A study of Mus musculus with 16 samples.

Results

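Txnip and the other 5 genes of the carbohydrate response that were followed here were measured in the kidneys of 16 male mice, 4 in each of 4 groups. The genes were Txnip, Arrdc4, Mlxipl, Mlxip, Mlx and Pklr, found by their symbols among the 57186 genes of the count table, and all 6 passed the minimum of 100 counts over the libraries. All mice carried Elmo1H/H, an allele that raises the expression of Elmo1, on the C57BL/6J background. The diabetic mice also carried the dominant Ins2Akita/+ allele, which causes misfolded proinsulin and loss of insulin in the pancreas, and the non-diabetic mice were Ins2+/+. Untreated groups are named ND_C (non-diabetic) and D_C (diabetic), and the groups given vitamin B12 in the drinking water, at 10 mg/kg/day from 8 weeks of age, are named ND_B12 and D_B12. By the study's methods the kidneys were taken at about 4 months of age, after 8 weeks of B12 in the treated groups. The labels give 16 weeks of B12 instead, which would place the collection later, so the age is not settled. The model is one of insulin deficiency on a background with raised Elmo1 in every group, controls included.

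Cells sense incoming sugar through a small set of transcription factors. ChREBP (encoded by Mlxipl) and MondoA (encoded by Mlxip) enter the nucleus when glucose 6-phosphate and related sugars rise, and they bind DNA only together with their partner Mlx. Their best known targets include Txnip, which binds thioredoxin and restrains glucose uptake, its close relative Arrdc4, and Pklr, the pyruvate kinase of liver and of the kidney's proximal tubule, the segment that takes back filtered glucose. The active factors bind a carbohydrate response element, in which a pair of E-box-like motifs is set a fixed distance apart.

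The DNA just before the start of 4 transcripts is shown because it carries the letters of these motifs. Each line gives the 250 bases up to the base before the start, on the strand of the gene, from GRCm39. Capitals mark the matched motif, which is CACGNG followed after 5 bases by CNCGNG (the spaced pair) in Txnip and Pklr and CACGTG (an E-box) in Arrdc4 and at the upstream Mlxipl start. The Txnip stretch lies at chr3:96465017-96465266 on the plus strand, that of Pklr at chr3:89043629-89043878 on the plus strand (inside the gene, after the first Pklr start), that of Arrdc4 at chr7:68399000-68399249 on the minus strand and that of Mlxipl-210 at chr5:135118494-135118743 on the plus strand.
Txnip-201: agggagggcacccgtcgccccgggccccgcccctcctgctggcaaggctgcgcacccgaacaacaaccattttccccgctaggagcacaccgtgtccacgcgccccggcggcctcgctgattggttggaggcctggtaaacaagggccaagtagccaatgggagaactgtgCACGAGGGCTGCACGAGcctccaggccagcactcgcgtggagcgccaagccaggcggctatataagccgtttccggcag
Pklr-202: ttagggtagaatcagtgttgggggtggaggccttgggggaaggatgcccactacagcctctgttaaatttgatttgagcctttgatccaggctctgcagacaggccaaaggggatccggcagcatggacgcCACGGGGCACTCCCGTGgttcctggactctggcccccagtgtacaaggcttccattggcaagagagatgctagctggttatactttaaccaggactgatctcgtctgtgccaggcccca
Arrdc4: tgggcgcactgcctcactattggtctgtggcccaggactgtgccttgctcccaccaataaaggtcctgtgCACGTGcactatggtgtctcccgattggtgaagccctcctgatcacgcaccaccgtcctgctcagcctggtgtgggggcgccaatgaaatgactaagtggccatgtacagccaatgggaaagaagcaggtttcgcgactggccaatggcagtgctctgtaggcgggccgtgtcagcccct
Mlxipl-210: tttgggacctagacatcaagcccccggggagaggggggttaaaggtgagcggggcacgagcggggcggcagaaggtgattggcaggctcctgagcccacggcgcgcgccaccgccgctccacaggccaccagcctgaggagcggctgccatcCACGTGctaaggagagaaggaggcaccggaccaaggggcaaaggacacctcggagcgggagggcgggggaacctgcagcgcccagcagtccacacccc

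The spaced pair in Txnip covered positions -79 to -63, where -1 is the last base before the start. In Pklr it covered positions -119 to -103 and read as a match on both strands. The E-box lay at -180 to -175 in Arrdc4 and at -98 to -93 before the upstream Mlxipl start, and Mlx held another at -16 to -11. The windows of Mlxip, of the main Mlxipl start and of the first Pklr start held neither set of letters. Both strands of a window of 300 bases, 50 of them after the start, were searched at 8 starts, and no match of one motif overlapped the other. Among 21757 promoters of the same length, 90 (0.414%) held the spaced pair and 1701 (7.82%) held the E-box. A match is a run of letters and does not show that a factor was bound there in these kidneys.

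**Figure D1:**
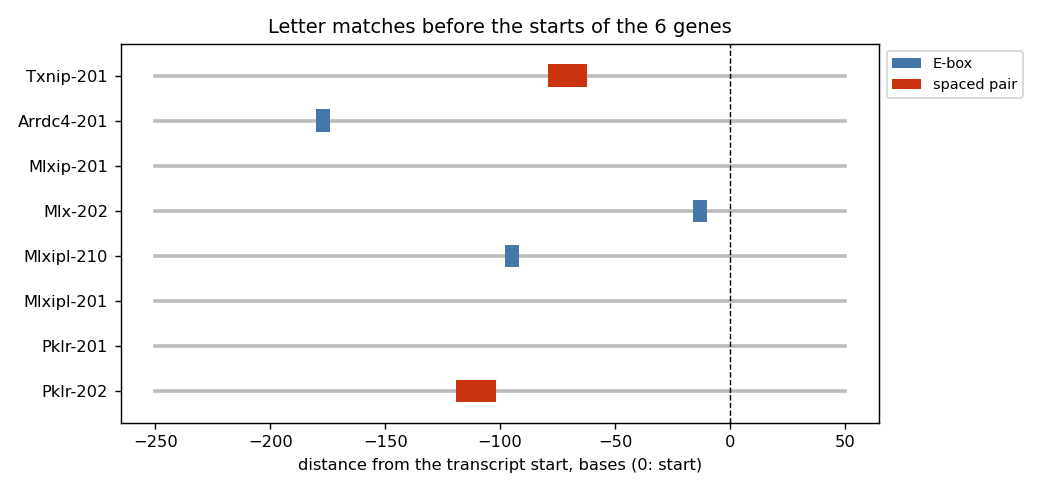
Positions of the matched letters in bases relative to the transcript start (x axis) for the 8 starts of the 6 genes (rows); grey lines are the searched windows, red bars the spaced pair and blue bars the E-box. Red bars appear at Txnip-201 (-79 to -63) and Pklr-202 (-119 to -103) and at no other start.

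In GENCODE vM39, Txnip (ENSMUSG00000038393.16) spans 96465267 to 96469201 on chromosome 3, and Arrdc4 (ENSMUSG00000042659.17) 68386742 to 68398999 on chromosome 7. Mlxipl lies at 135118744 to 135168615 and Mlxip at 123532794 to 123595995, both on chromosome 5. Mlx runs from 100978080 to 100983043 on chromosome 11, and Pklr from 89043449 to 89054619 on chromosome 3. All but Arrdc4 overlap a gene on the opposite strand (Gm15441 with Txnip, Gm43500 with Mlxipl, Gm15747 with Mlxip, Psmc3ip with Mlx, Hcn3 with Pklr), and Mlxip also overlaps 3 models on its own strand. As the strand setting of the counting was not stated, the counts of these 5 genes are uncertain to that extent.

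Per kilobase of exon, Txnip was by far the most abundant of the 6, with a median level of 129 CPM per kb and a range of 89.8 to 242 over the 16 libraries, above every value of the other 5 genes. Mlxipl followed at 15.2 (12.5 to 19.8), Mlx at 14.1 (12.9 to 16.5) and Pklr at 11.7 (7.47 to 21.6), and these 3 ranges overlapped. Arrdc4 at 3.43 (2.75 to 4.56) and Mlxip at 3.36 (2.81 to 3.87) were lowest and also overlapped. ChREBP mRNA was therefore at a higher level per length than MondoA mRNA in every library.

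Both sides of the comparisons hold a library that stood apart. Over 13906 genes, with the 6 left out, ND_B12 4 was nearer to the diabetic libraries (mean squared distance of log2 CPM 0.0633) than to the other non-diabetic ones (0.0988). D_C 1 was nearer to the non-diabetic libraries (0.0731) than to the other diabetic ones (0.0963), and the other 14 libraries were nearer to their own state. Of those, D_B12 4 was only slightly nearer to the other diabetic libraries (0.0754) than to the non-diabetic ones (0.0775). Results that rest on ND_B12 4 and D_C 1 are given with and without both. The 2 were picked after the data were seen, for lying nearer the other state, a choice that favours passing the threshold. Over all tested genes, the share that passed for diabetes in untreated kidneys went from 1.66% to 8.57% without them. For B12 in diabetic kidneys it went from 0% to 0.870%. Groups here are those of the labels. The table of group means in the study's supplement rests on other sets of libraries, with those labelled D_B12 as its untreated diabetic group and most of those labelled D_C in its treated diabetic group. Under those sets the direction of the Txnip difference for B12 in diabetic kidneys would be the opposite of the one given here. For diabetes in untreated kidneys, the libraries labelled D_B12 had a Txnip mean of 27871 ± 4571 (SD, n = 4) in normalized counts. That of ND_C was 29178 ± 4056, and the ranges overlapped. The assignment bears in the same way on the direction of every gene compared between D_C and D_B12, and which assignment is right was not tested. Total counts were 65271308 to 91771136 per library. The summed level of 10 kidney segment markers was 14071 to 15269 CPM in ND_C and 14884 to 15801 in ND_B12. It was 12836 to 15586 in D_C and 13175.4 to 13380.5 in D_B12, which lay below every non-diabetic library. For 8 proximal tubule markers the sums were 13262.8 to 14314.9 in ND_C and 13933.5 to 15157.2 in ND_B12. They were 11879.7 to 14805.5 in D_C and 12935.3 to 13274.5 in D_B12. Single markers also differed between the groups. Aqp2, the water channel of the collecting duct, passed for diabetes in untreated kidneys (log2 fold change 1.69 ± 0.39, edgeR adjusted p = 0.0436), and DESeq2 also called Slc34a1, the phosphate carrier of the proximal tubule, and Slc12a3, the salt carrier of the distal tubule, which were lower (-0.28 and -0.33). Slc12a1, the salt carrier of the thick ascending limb, had a log2 difference of -0.58 with B12 in diabetic kidneys (edgeR adjusted p = 0.123), and -0.69 without D_C 1 and ND_B12 4, which passed (adjusted p = 0.0339). DESeq2 called Slc12a1 and Umod, another marker of this limb, for B12 in diabetic kidneys. The mean of Umod was 163381 in D_C, 118754 in D_B12 and 171965 in ND_B12. DESeq2 also called Umod and Slc34a1 for diabetes in B12-treated kidneys. Among markers of other cells, 5 of 6 for skeletal muscle and 5 of 6 for adrenal gland fell below the count minimum, 7 erythroid markers summed to 283 to 457 CPM, and 6 liver markers, whose tissue also expresses Pklr and Mlxipl, summed to 104 to 142 CPM in untreated and 85.7 to 137 in B12-treated non-diabetic kidneys, 75.8 to 126 in untreated diabetic and 73.7 to 93.4 in B12-treated diabetic kidneys. The 7 adipocyte markers ranged widely within each group, between 0.709 and 138 CPM in ND_C, between 0.755 and 34.5 in ND_B12, between 0.381 and 102 in D_C and between 0.291 and 159.7 in D_B12, with 102 in D_C 1 and 33.3 in ND_B12 4. The part of these cells and segments in the results was not tested. In whole kidney, fewer cells of a type and less RNA per cell cannot be told apart. Library names carry a date, and no date held both a D_C and a D_B12 library. The same held for ND_C and D_C, and for ND_B12 and D_B12. Counted in days from the first date, the libraries ran from 0 to 14 in ND_C and from 14 to 21 in ND_B12. They ran from 21 to 58 in D_C and from 63 to 111 in D_B12. In these comparisons date and group cannot be told apart.

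By the labels, Txnip had its highest group mean in untreated diabetic kidneys and its lowest in B12-treated diabetic kidneys. This direction depends on the assignment of the libraries, and the study reports the opposite, with Txnip induced by B12. With edgeR and no covariate, Txnip did not pass the threshold of an adjusted p under 0.05 when all libraries were used. Its normalized counts were 32879, 24553, 27011 and 32271 in ND_C and 33981, 43039, 51674 and 51345 in D_C. The D_C values were all above the ND_C values, although D_C 1, at 33981, exceeded the highest of them only slightly. The means were 29178 ± 4056 (SD, n = 4) in ND_C and 45010 ± 8368 in D_C, and the log2 difference of 0.63 ± 0.20 (SE) did not pass the threshold (edgeR, adjusted p = 0.104, exact permutation p = 0.0286, the smallest that 4 against 4 libraries allow).

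In D_B12 the normalized counts of Txnip were 22655, 25545, 30742 and 32544, all below the 4 values of D_C and within or just under the range of ND_C. Their mean was 27871 ± 4571 (SD, n = 4), and its log2 difference from D_C, -0.69 ± 0.20 (SE), did not pass the threshold (edgeR adjusted p = 0.151, exact permutation p = 0.0286). In ND_B12 the values were 34069, 34272, 30828 and 60751, so that 3 libraries lay close together and ND_B12 4 exceeded every other library of the study. The mean was 39980 ± 13937 (SD, n = 4), and neither B12 in non-diabetic kidneys (log2 fold change 0.46 ± 0.20, edgeR adjusted p = 0.637) nor diabetes in B12-treated kidneys (-0.53 ± 0.20, adjusted p = 0.186) passed the threshold.

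The effect of B12 on Txnip differed between the states by -1.15 ± 0.28 on the log2 scale (interaction, edgeR unadjusted p = 0.000808, adjusted p = 0.0790). Without D_C 1 and ND_B12 4, a choice made after the data were seen, Txnip passed the threshold in 3 comparisons. It was then higher with diabetes in untreated kidneys (log2 fold change 0.74 ± 0.13, edgeR adjusted p = 0.00504), lower with B12 in diabetic kidneys (-0.80 ± 0.13, adjusted p = 0.0165) and different in its response to B12 between the states (-0.98 ± 0.18, adjusted p = 0.0437). In non-diabetic kidneys the fold change for B12 dropped from 0.46 to 0.18 (adjusted p = 0.980) when both libraries were left out. With the date in the library name as a covariate, the log2 fold change of Txnip was 0.17 for diabetes in untreated kidneys (edgeR adjusted p = 0.886), while B12 in diabetic kidneys gave -1.26 (adjusted p = 0.0466), so that both sizes depend on this term. As the groups compared shared no date, these values rest on a linear trend in date carried between groups. Over all alternatives Txnip ran from -1.38 to -0.24 for diabetes in B12-treated kidneys and from -1.55 to -0.87 for the interaction. On the date shared by D_C 1 and ND_B12 2 to 4, Txnip stood at 33981 in D_C 1 and between 30828 and 60751 in the others, and on the date shared by ND_C 4 and ND_B12 1 it stood at 32271 and 34069.

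**Figure D2:**
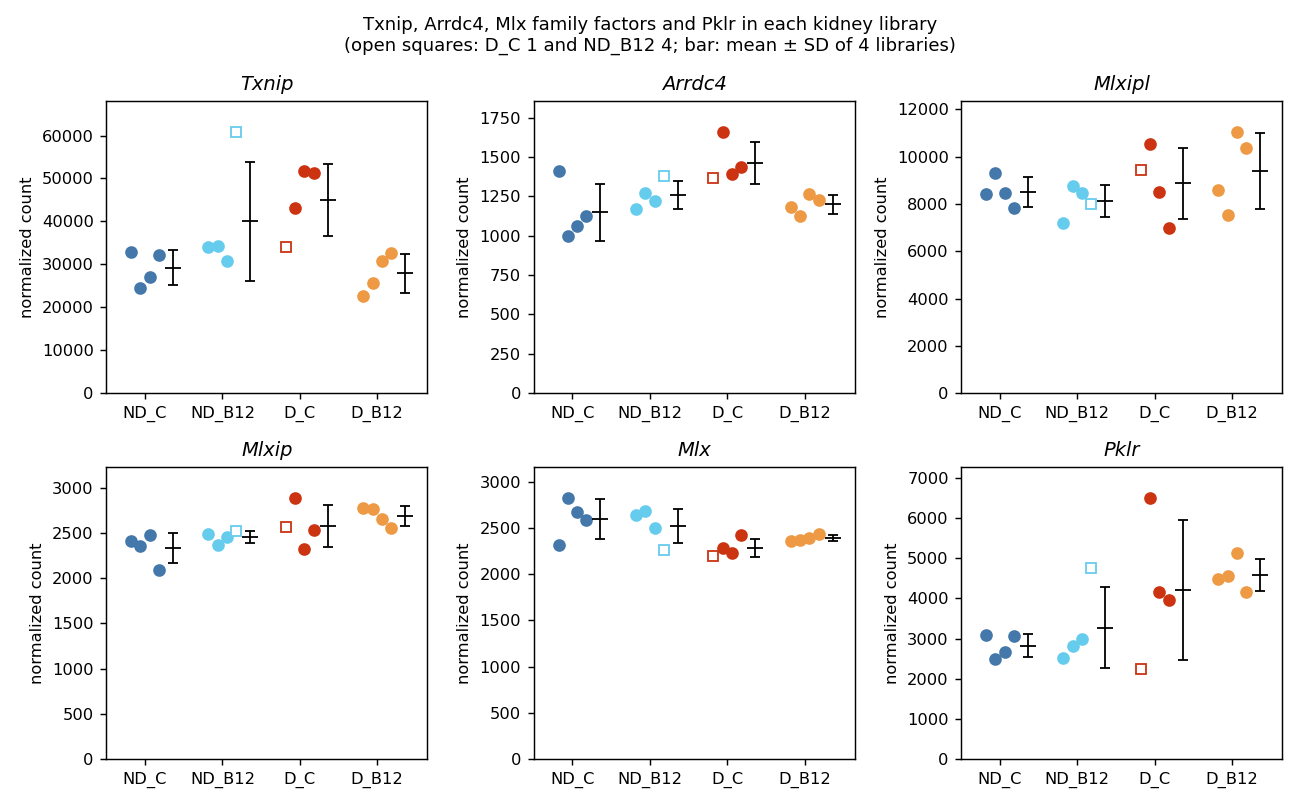
Normalized counts (y axes, from 0) of the 6 genes in each library by group (x axes), with the mean ± SD of the 4 libraries as black bars; open squares are D_C 1 and ND_B12 4. The D_B12 values of Txnip (22655 to 32544) lie below all D_C values (33981 to 51674), and the open squares of Pklr sit with the other diabetes state.

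Arrdc4, the closest relative of Txnip among the alpha-arrestins and, like it, a restraint on glucose uptake, also had its highest group mean in D_C, with smaller differences than Txnip. In normalized counts it had 1410, 1001, 1061 and 1124 in ND_C and 1367, 1657, 1389 and 1437 in D_C, and ND_C 1 overlapped D_C. The difference on the log2 scale was 0.35 ± 0.10 (SE, edgeR adjusted p = 0.0747, exact permutation p = 0.0857) with all libraries and 0.38 ± 0.10 (adjusted p = 0.0387) without D_C 1 and ND_B12 4, which passed the threshold. Without ND_C 1 alone, the library that overlapped D_C, the fold change was 0.45 and also passed (adjusted p = 0.0410). This was the largest value with each library left out in turn, which gave 0.28 to 0.45 (edgeR adjusted p from 0.0410 to 0.204).

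In D_B12, Arrdc4 had normalized counts of 1184, 1122, 1264 and 1224, all below those of D_C, and in ND_B12 1170, 1273, 1217 and 1380. The group means were 1149 ± 181 (SD, n = 4) for ND_C, 1260 ± 90.1 for ND_B12, 1462 ± 133 for D_C and 1199 ± 60.8 for D_B12. B12 in diabetic kidneys gave a log2 fold change of -0.29 ± 0.10 (edgeR adjusted p = 0.210, exact permutation p = 0.0286), and the difference between the states was -0.42 ± 0.14 (adjusted p = 0.152). Without the 2 libraries these differences did not pass either (adjusted p = 0.143 and 0.200). With all libraries, B12 in non-diabetic kidneys (0.14, edgeR adjusted p = 0.792) and diabetes in B12-treated kidneys (-0.08, adjusted p = 0.746) did not pass the threshold, and the values without the 2 libraries were 0.09 and -0.02 (adjusted p = 1.000 and 0.939).

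Pklr, the enzyme of the last step of glycolysis, had higher means in both diabetic groups, and its call depended on the 2 libraries that stood apart. The group means were 2826 ± 292 (SD, n = 4) for ND_C, 3265 ± 1010 for ND_B12, 4213 ± 1750 for D_C and 4586 ± 409 for D_B12. The normalized counts of Pklr were 3081, 2496, 2666 and 3062 in ND_C and 2503, 2823, 2982 and 4751 in ND_B12. They were 2245, 6503, 4153 and 3950 in D_C and 4478, 4559, 5143 and 4163 in D_B12. D_C 1 had the lowest value of all 16 libraries and ND_B12 4 the third highest, while the other 7 non-diabetic libraries (2496 to 3081) lay below the other 7 diabetic libraries (3950 to 6503).

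With all libraries the log2 fold change of Pklr was 0.58 ± 0.24 (SE) for diabetes in untreated kidneys and 0.49 ± 0.24 in B12-treated kidneys (edgeR adjusted p = 0.211 and 0.319). Without D_C 1 and ND_B12 4 both passed the threshold, at 0.78 ± 0.15 (adjusted p = 0.00757) and 0.73 ± 0.15 (adjusted p = 0.0218). Without D_C 1 alone, the difference in untreated kidneys was 0.77 and passed as well (adjusted p = 0.0346). With each library left out in turn, this difference ran from 0.28 to 0.77 (edgeR adjusted p from 0.0346 to 0.529). Over all alternatives, by edgeR and DESeq2, the adjusted p for diabetes ran from 0.00757 to 0.677 in untreated kidneys. In B12-treated kidneys it ran from 0.0218 to 0.799. For B12 the log2 differences of Pklr were 0.12 ± 0.24 in diabetic kidneys (95% interval -0.38 to 0.63, adjusted p = 0.875) and 0.21 ± 0.24 in non-diabetic kidneys (-0.30 to 0.72, adjusted p = 0.884). Without the 2 libraries both of these changed sign, to -0.08 and -0.03. The difference of the B12 effect between the states was -0.09 ± 0.34 (adjusted p = 0.932).

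Among the transcription factors, Mlx, the partner both sugar sensors need, had a mean of 2601 ± 216 (SD, n = 4) in ND_C and of 2284 ± 98.5 in D_C. Mlx had normalized counts of 2314, 2827, 2679 and 2586 in ND_C and 2201, 2285, 2226 and 2422 in D_C, and the ranges overlapped only through ND_C 1. Their difference on the log2 scale was -0.19 ± 0.07 (SE, edgeR adjusted p = 0.132, exact permutation p = 0.0571). The values of ND_B12 were 2643, 2681, 2502 and 2266, and those of D_B12 2361, 2370, 2398 and 2435, the tightest group of the 6 genes with an SD of 33.4 around 2391.

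Mlxip, which encodes MondoA, differed little. In ND_C its normalized counts were 2409, 2357, 2474 and 2089, and in ND_B12 they were 2490, 2371, 2450 and 2522. The diabetic libraries had 2563, 2887, 2320 and 2537 in D_C and 2779, 2767, 2655 and 2551 in D_B12. The D_B12 values were all above the ND_B12 values, by 0.13 ± 0.07 on the log2 scale (SE, edgeR adjusted p = 0.354, exact permutation p = 0.0286). In untreated kidneys the difference was 0.14 ± 0.07 (adjusted p = 0.261), and no comparison of Mlxip passed the threshold with or without the 2 libraries.

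Mlxipl, which encodes ChREBP, had overlapping groups in every comparison. In ND_C the normalized counts were 8409, 9323, 8459 and 7827, and in ND_B12 they were 7194, 8765, 8470 and 8010. The diabetic libraries had 9441, 10509, 8496 and 7000 in D_C and 8594, 7542, 11024 and 10379 in D_B12. The log2 fold change for diabetes was 0.06 (95% interval -0.20 to 0.32) in untreated and 0.21 (-0.06 to 0.47) in B12-treated kidneys, and for B12 it was 0.08 (-0.18 to 0.35) in diabetic and -0.06 (-0.33 to 0.20) in non-diabetic kidneys (edgeR adjusted p from 0.417 to 0.943). These intervals leave room for changes of up to about 0.47 on the log2 scale.

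Counted together, 0 of the 6 genes passed the threshold for diabetes in untreated kidneys (1.66% of all tested genes passed) and 0 of 6 in B12-treated kidneys (0.823% passed). For B12 in diabetic kidneys, B12 in non-diabetic kidneys and the interaction, 0 of 6 passed and 0% of all tested genes did. At an unadjusted edgeR p under 0.05 the 6 genes gave 5, 1, 2, 1 and 2 in these 5 comparisons, against 18.6%, 17.0%, 13.6%, 7.62% and 16.1% of all tested genes. With DESeq2 instead, 2 genes (Txnip and Arrdc4) passed for diabetes in untreated kidneys (8.40% of the genes it adjusted), 0 in B12-treated kidneys (5.67%), 1 (Txnip) for B12 in diabetic kidneys (3.53%), 0 for B12 in non-diabetic kidneys (0.0236%) and 1 (Txnip) for the interaction (4.84%).

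Without D_C 1 and ND_B12 4, the counts by edgeR were 3 genes (Txnip, Arrdc4 and Pklr) for diabetes in untreated kidneys, where 8.57% of all tested genes passed, and 1 (Pklr) in B12-treated kidneys, where 2.80% did. For B12 they were 1 (Txnip) in diabetic kidneys (0.870% of all) and 0 in non-diabetic kidneys (0%), where 5.21% of all genes and 0 of the 6 had an unadjusted p under 0.05. The interaction gave 1 (Txnip, 0.350% of all). Groups that did not overlap were found for Txnip in untreated kidneys (4.86% of all genes did so in this direction), for Txnip and Arrdc4 with B12 in diabetic kidneys (3.18%) and for Mlxip in B12-treated kidneys (5.10%). The median log2 fold change of the 6 was 0.25 for diabetes in untreated kidneys, beside -0.0034 over all genes, and 0.07 for B12 in diabetic kidneys, beside -0.00044.

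**Figure D3:**
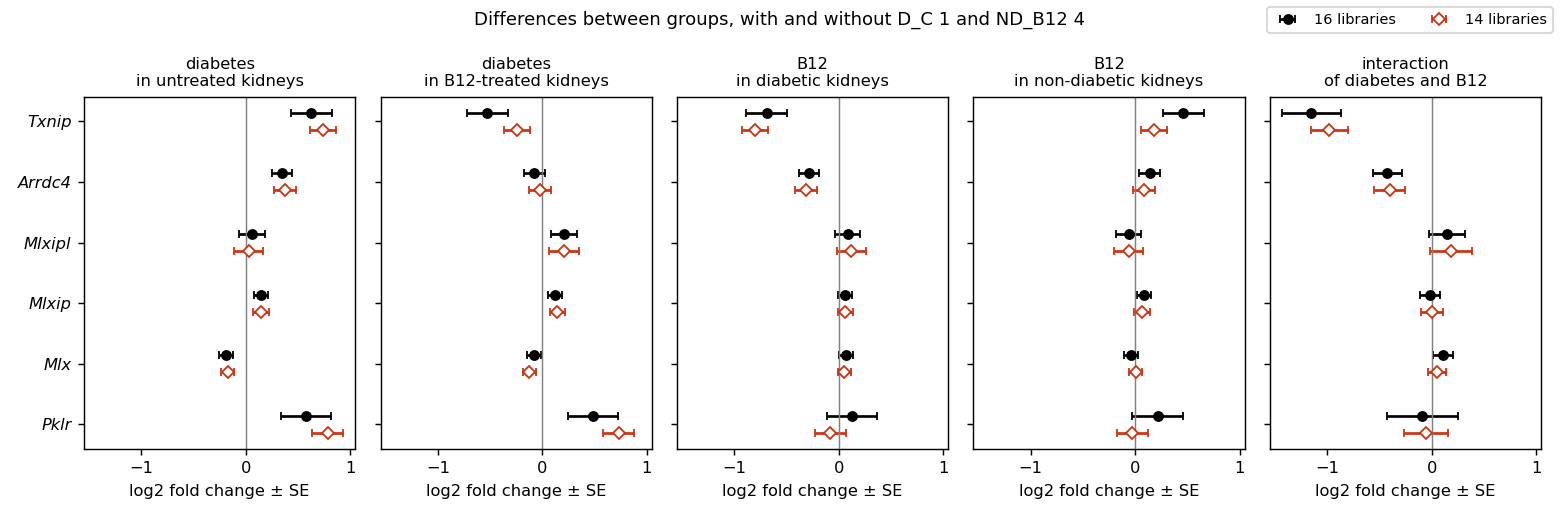
Log2 fold changes ± SE (x axes) of the 6 genes (rows) in the 5 comparisons (panels), fitted with 16 libraries (black circles) and with 14, without D_C 1 and ND_B12 4 (red diamonds). Txnip lies at 0.63 for diabetes in untreated kidneys and at -0.69 for B12 in diabetic kidneys, and Pklr lies to the right in both panels for diabetes.

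The transcript counts divide these genes further, though StringTie assigns reads to overlapping transcripts by estimate. ChREBP is known to be made from a main start and from an upstream start whose product, ChREBP-beta, is itself induced when ChREBP is active. In the annotation Mlxipl-210 starts 17011 bases before the main transcript, Mlxipl-201, and its upstream stretch is the one printed above with the E-box. Mlxipl-210 is annotated without a defined coding sequence, so its counts are not shown to be those of ChREBP-beta mRNA. The estimated counts of Mlxipl-210 were 6, 0, 0 and 4 in ND_C and 1, 0, 6 and 32 in ND_B12. They were 0, 111, 45 and 33 in D_C and 49, 29, 65 and 19 in D_B12.

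ND_B12 4 and D_C 1 again sat with the other diabetes state, and apart from them the non-diabetic libraries held 0 to 6 and the diabetic libraries 19 to 111 of these counts. The transcript was picked out after its values were seen, and no test was made. It formed at most 0.992% of the Mlxipl counts of a library. Mlxipl-210 is annotated with 412 bases and Mlxipl-201 with 3639, and with counts divided by transcript length its mean share became 3.45% for D_C and 3.03% for D_B12, beside 0.227% for ND_C and 0.909% for ND_B12. Without this division the means were 0.467%, 0.421%, 0.0313% and 0.122% in the same order. As reads are assigned by estimate, a value of 0 sets no upper limit on the reads of a transcript.

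**Figure D4:**
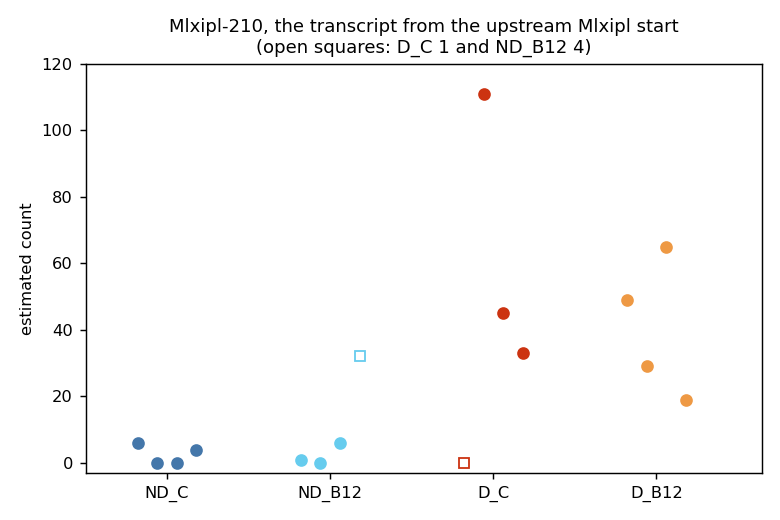
Estimated counts (y axis) of Mlxipl-210, which begins at the upstream Mlxipl start, in each library by group (x axis); open squares are D_C 1 and ND_B12 4. The filled points lie at 0 to 6 in the non-diabetic groups and at 19 to 111 in the diabetic groups.

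For Pklr, Pklr-202, which begins at the start with the spaced pair, carried 93.2 to 99.5% of the gene's counts, and 91.8 to 93.6% on average per group with counts divided by transcript length. Pklr-201, which begins further upstream as the red-cell form of the enzyme is known to do, had 155 estimated counts in ND_C 2 and 170 in D_C 2 and 0 in the other 14 libraries. For Txnip, Txnip-201 carried 75.2 to 92.4% and Txnip-202, with the same start, took 7.05 to 24.1%. Most of the counts of Pklr and Txnip are thus those of Pklr-202 and of the transcripts of the main Txnip start.

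The levels of Txnip and Arrdc4 varied together across the libraries, differences between groups included. Over the 16 libraries their log2 CPM had a Pearson r of 0.729 (permutation p = 0.00125, adjusted over the 5 relations of Txnip to the other genes 0.00625) and a Spearman rho of 0.771 (permutation p = 0.00073, adjusted 0.00365). Without the 2 libraries farthest from the Txnip median, D_C 3 and ND_B12 4, r was 0.765, and with the group means subtracted it was 0.527. The permutations shuffled all 16 libraries regardless of group, so their p-values do not separate variation between mice from differences between groups. With the group means subtracted no test was made. Txnip and Pklr had an r of 0.327 (permutation p = 0.214, adjusted 0.357; rho 0.171, permutation p = 0.527), which became 0.629 with the group means subtracted. Both genes were lowest of D_C in D_C 1 and highest of ND_B12 in ND_B12 4. Without D_C 1 and ND_B12 4 the r of Txnip and Pklr was 0.268. It was not computed with group means subtracted and these libraries left out, so 0.629 may rest on them.

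For the factors, the r of Txnip was -0.469 with Mlx (permutation p = 0.0665, adjusted 0.166), -0.168 with Mlxipl (p = 0.535, adjusted 0.669) and -0.0885 with Mlxip (p = 0.745). Their rho was -0.406 (permutation p = 0.121), -0.171 (p = 0.527) and -0.112 (p = 0.681), with adjusted values of 0.302, 0.659 and 0.681. Without D_C 3 and ND_B12 4 the r of Txnip was 0.177 with Pklr, -0.285 with Mlx, -0.103 with Mlxipl and -0.0044 with Mlxip.

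**Figure D5:**
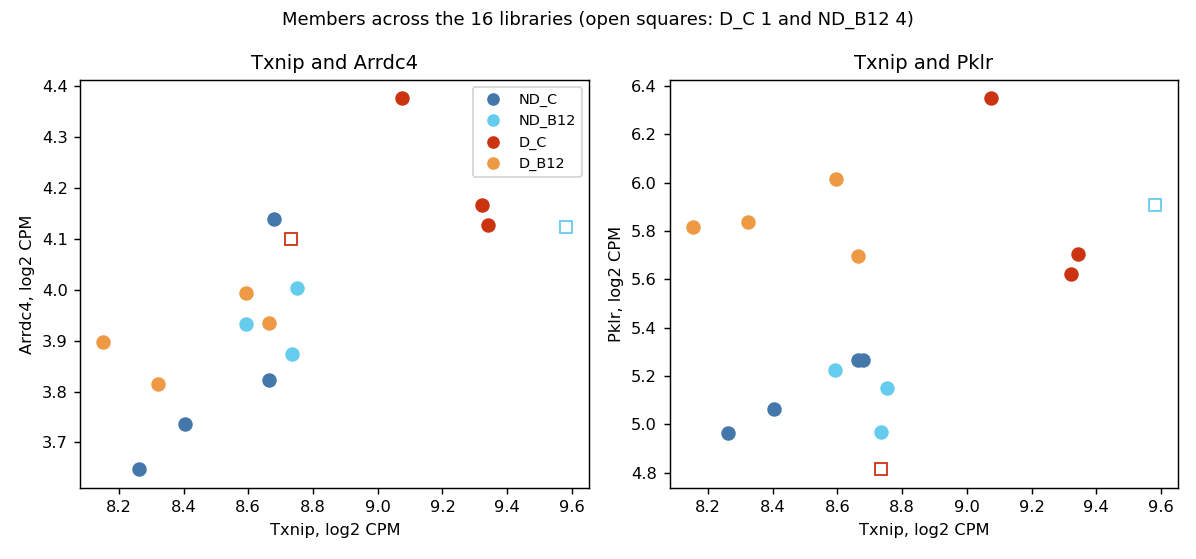
Log2 CPM of Arrdc4 (left) and Pklr (right) against log2 CPM of Txnip (x axes) in the 16 libraries, coloured by group; open squares are D_C 1 and ND_B12 4. Arrdc4 climbs with Txnip (r = 0.729), whereas in the Pklr panel the D_B12 libraries lie above the non-diabetic libraries at like Txnip levels.

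The genes whose levels followed Txnip most closely over the 16 libraries were Rab3gap1 (Pearson r 0.943), Gm49492 (0.926), Klf11 (0.905), Tceanc2 (0.899) and Ctnnd1 (0.892). With group means subtracted these values were 0.903, 0.931, 0.804, 0.859 and 0.833. Klf11, a zinc finger transcription factor, had the largest fold changes of the 5, with 0.63 ± 0.15 (SE, log2 scale) for untreated diabetic against non-diabetic kidneys and -0.62 ± 0.15 for B12 in diabetic kidneys. These 5 genes were chosen for their likeness to Txnip in the same libraries, so their differences between groups are a description, with no test.

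Pklr had a different company. Its closest genes were Slc5a10 (Pearson r 0.976), a sodium-coupled sugar transporter of the proximal tubule, Adam11 (0.971), and Eno1 (0.968), the enolase that acts just before pyruvate kinase, with its near-identical copies Gm4735 (0.967) and Eno1b (0.964), whose reads could be split among them. Slc5a10 had 9256 normalized counts in D_C 1 against 22454 to 40995 in the other D_C libraries, and 27489 in ND_B12 4 against 11132 to 12642 in the other ND_B12 libraries. Without these libraries its log2 fold change for diabetes was 1.21 in untreated and 1.14 in B12-treated kidneys, and with them 0.93 and 0.72. As Slc5a10 was chosen for its likeness to Pklr in these libraries, these values too are a description.

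The shares of all tested genes that passed in each comparison, given with the counts of the 6 genes, are the background of every list that follows. Genes that bring glucose into the cell and phosphorylate it supply the signal these factors read. Of 9 listed genes 8 were tested, and 1 passed for diabetes in untreated kidneys, Hk1, the hexokinase of most tissues. Hk1 had normalized counts of 6903, 6454, 6096 and 7679 in ND_C and 8032, 9888, 9465 and 11012 in D_C, with no overlap. On the log2 scale it was higher by 0.50 ± 0.09 (SE, edgeR adjusted p = 0.0246). In D_B12 its values were 7104, 7090, 6991 and 6516, below all those of D_C, and the change with B12 was -0.47 ± 0.09 (adjusted p = 0.0742), which passed without D_C 1 and ND_B12 4 (-0.54, adjusted p = 0.0152). The other 4 comparisons gave 0 calls in the list with edgeR, with 2, 2, 1 and 2 genes at an unadjusted p under 0.05, and 4 genes reached that level for diabetes in untreated kidneys.

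The difference of the B12 effect on Hk1 between the states was -0.69 ± 0.12 (edgeR adjusted p = 0.0554, and 0.0393 without the 2 libraries). In B12-treated kidneys Hk3 had the smallest unadjusted p of the list for diabetes (log2 fold change -0.74, adjusted p = 0.264), and Hk1 had it for B12 in non-diabetic kidneys (0.22, adjusted p = 0.610). With DESeq2, Hk1 and Slc2a1, the glucose carrier of many cell types, passed for diabetes in untreated kidneys, for B12 in diabetic kidneys and for the interaction, and 0 genes passed in the other 2 comparisons. The list's median for diabetes in untreated kidneys was 0.24, beside -0.0034 over all genes.

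Around the pyruvate kinase step, 5 of 5 listed genes were tested, and Pkm, the pyruvate kinase of most other tissues, passed for diabetes in untreated kidneys. Its normalized counts were 12218, 10433, 12117 and 13099 in ND_C and 12115, 20770, 18075 and 20251 in D_C, where D_C 1 lay among the ND_C values. The difference of 0.57 ± 0.13 (SE, log2 scale) passed with an edgeR adjusted p of 0.0429. In B12-treated kidneys the value for Pkm was 0.13 (adjusted p = 0.669), and Pcx, pyruvate carboxylase, had the smallest unadjusted p (-0.25, adjusted p = 0.0974).

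In diabetic kidneys the log2 difference of Pkm with B12 was -0.34 (edgeR adjusted p = 0.260) with all libraries and -0.48 without D_C 1 and ND_B12 4, which passed (adjusted p = 0.0256). DESeq2 gave 1 call for diabetes in untreated kidneys (Pkm), 1 in B12-treated kidneys (Pcx) and 0 in the other comparisons. In non-diabetic kidneys Pcx had the smallest unadjusted p for B12 (0.16, adjusted p = 0.647), and for the interaction Pkm had it (-0.45, adjusted p = 0.240). The D_B12 mean of Pkm was 14063 ± 1228 (SD, n = 4), beside 11967 ± 1114 in ND_C.

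Of 24 other known targets of ChREBP and MondoA, 23 were tested, and 0 passed in any of the 5 comparisons, with 4, 4, 5, 0 and 2 at an unadjusted edgeR p under 0.05. Acacb, the acetyl-CoA carboxylase that controls fatty acid oxidation, came closest for diabetes in untreated kidneys (log2 fold change 0.47 ± 0.12, adjusted p = 0.0538). Bhlhe40, a transcriptional repressor, had the smallest unadjusted p for diabetes in B12-treated kidneys (-0.58, adjusted p = 0.0851), and also in diabetic kidneys for B12 (-0.43, adjusted p = 0.242). Gpi1, a glycolytic isomerase, had it for B12 in non-diabetic kidneys (0.09, adjusted p = 0.743) and Elovl6, a fatty acid elongase, for the interaction (-0.61, adjusted p = 0.242). DESeq2 gave 3 calls for diabetes in untreated kidneys (Acacb, Elovl6 and Me1), 1 in B12-treated kidneys (Bhlhe40) and 0 in the other comparisons. Without D_C 1 and ND_B12 4, 5 targets were higher and 2 lower for diabetes in untreated kidneys, where 8.57% of all tested genes passed, and 2 were higher and 2 lower in B12-treated kidneys, where 2.80% did.

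The list's median for diabetes in untreated kidneys was 0.06 with all libraries, beside 0.63 for Txnip and 0.35 for Arrdc4. Me1, the cytosolic malic enzyme, was among those with a negative value (-0.26, edgeR adjusted p = 0.0708), and it is named here after its value was seen.

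The thioredoxin system, which Txnip binds, had 10 of 10 genes tested and 0 that passed in the 5 comparisons, with 2, 3, 1, 1 and 1 at an unadjusted edgeR p under 0.05. Txn2, the mitochondrial thioredoxin, had the smallest unadjusted p for diabetes in untreated kidneys (log2 fold change -0.14, adjusted p = 0.190). Txnrd3, a thioredoxin reductase, had it in the other 4 comparisons, with -0.23 for diabetes in B12-treated kidneys (adjusted p = 0.144), -0.22 for B12 in diabetic kidneys (0.223), 0.18 for B12 in non-diabetic kidneys (0.637) and -0.40 for the interaction (0.105). DESeq2 gave 1 call, Txnrd3 for the interaction. Without the 2 libraries Prdx3, a mitochondrial peroxiredoxin, passed for diabetes in untreated kidneys (0.31, edgeR adjusted p = 0.00990).

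Of the 4 other alpha-arrestins, 3 were tested and 0 passed in the 5 comparisons, with 1, 0, 1, 0 and 1 at an unadjusted edgeR p under 0.05. Arrdc1 gave 0.19 for diabetes in untreated kidneys (adjusted p = 0.170), -0.16 for B12 in diabetic kidneys (0.328), 0.07 for B12 in non-diabetic kidneys (0.867) and -0.23 for the interaction (0.267). Arrdc3 gave 0.35 for diabetes in B12-treated kidneys (adjusted p = 0.377), and DESeq2 called 0 of the 3. All 9 listed genes of the Mlx, Max and Mnt network were tested and 0 passed, with 0, 3, 1, 1 and 2 at an unadjusted p under 0.05. Mnt, a repressor that can also pair with Mlx, had the smallest p in each comparison, with 0.18 for diabetes in untreated kidneys (edgeR adjusted p = 0.349), -0.35 in B12-treated kidneys (0.0908), -0.26 for B12 in diabetic kidneys (0.261), 0.27 in non-diabetic kidneys (0.589) and -0.53 for the interaction (0.0947). DESeq2 called Mnt in B12-treated kidneys and for the interaction, and 0 genes of this network in the other 3 comparisons.

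Clock genes were counted because the level of Txnip is known to vary over the day. Of 11 clock genes tested, 5 had an unadjusted edgeR p under 0.05 for diabetes in untreated kidneys, 9 in B12-treated kidneys, 10 for B12 in diabetic kidneys, 3 for B12 in non-diabetic kidneys and 10 for the interaction, against 18.6%, 17.0%, 13.6%, 7.62% and 16.1% of all tested genes. After adjustment 1, 0, 0, 0 and 0 passed, against 1.66%, 0.823%, 0%, 0% and 0% of all, and with DESeq2 2, 5, 6, 0 and 7 did, against 8.40%, 5.67%, 3.53%, 0.0236% and 4.84%. The gene that passed with edgeR was the repressor Cry2, for diabetes in untreated kidneys (log2 fold change 0.89, adjusted p = 0.04996). The list holds genes with opposite signs, named here after their values were seen. With B12 in diabetic kidneys the activators Bmal1, Npas2 and Clock had log2 differences of 1.59, 1.47 and 0.39 (edgeR adjusted p = 0.151, 0.196 and 0.173). The repressors Per1, Per2, Per3, Cry1 and Cry2 had -0.55, -0.44, -0.80, -0.89 and -0.74, and Dbp, a target of the activators, had -1.24 (adjusted p from 0.138 to 0.341). These signs are the opposite of the study's, which reports the activators lower and the repressors and Dbp higher with B12. They depend on the assignment of the libraries to D_C and D_B12, and which assignment is right was not tested. The study states that samples were collected within a single short window of the day, after a short fast. The part of the time of collection or of the fast in the values of Txnip was not tested.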

How the data were processed

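Kidney RNA of 16 mice was sequenced, and the authors aligned the reads with STAR to GRCm39 and deposited estimated counts per gene and per transcript from StringTie. The values were already whole numbers and were used as they stood. The strand setting of the counting is not given in the sources used here. Genes with at least 100 counts over all libraries (25408 of 57186) were tested with edgeR 4.0.16 in R 4.3.3, with TMM normalization and the quasi-likelihood test. A mean was fitted per group over all 16 libraries, and p-values were adjusted by Benjamini-Hochberg over all tested genes, with a threshold of 0.05. Total counts ran from 65271308 to 91771136 per library. Normalized counts are counts divided by DESeq2's size factors (0.804 to 1.18), and log2 CPM used a prior count of 2. The alternatives were DESeq2 1.42.0, another normalization, other filters, a covariate for the date in the library name, a block for the replicate number, fits of only the groups compared and each library left out. Leaving out D_C 1 and ND_B12 4 together was chosen after seeing the data. The procedure was tested on simulated data.

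Groups and directions are those of the labels. The group means tabulated by the study correspond to other sets of libraries than the labels give, and which assignment is right was not tested. The treatment length, and with it the age at collection, also differs between labels and methods. The genes and lists were chosen with earlier results of these data known. From each list, genes passing the threshold were named (up to 4 per comparison), or else the gene with the smallest unadjusted p. The genes most like Txnip or Pklr were the 5 with the highest Pearson r. Sequences came from the GRCm39 genome at GENCODE vM39 starts, while the counts used vM35 of the same build. Versions of Python and numpy were 3.11.15 and 2.4.6.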

Additional observations from a re-analysis of the deposited data

Results flagged for a closer look

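Among 36 sets of 4 libraries (the 6 genes and the shares of 3 transcripts, in each group), 2 held a library far from the other 3, its gap to the nearest other library, as a share of the set's range, exceeding Dixon's 95% critical value. Chance alone flags about 1 in 20 such sets, or 1.8 of 36. Txnip in ND_B12 4 had 60751 normalized counts, with the other ND_B12 libraries at 30828 to 34272, a gap of 0.885 of the range. This is the library that lay nearer to the diabetic libraries over all genes. Pklr-202 in ND_C 2 held 93.2% of the Pklr counts, with the other ND_C libraries at 99.2 to 99.3%, a gap of 0.986 of the range. In the same library 155 estimated counts were assigned to Pklr-201, which was at 0 in the other ND_C libraries. How far the assignment of reads to transcripts by estimate has a part in this value was not tested.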

How the results depend on the processing

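With 4 libraries a group and a common biological coefficient of variation of 0.201, the number of the 6 genes past the threshold depended on the setting. From 0 in each comparison, it became 2 for diabetes in untreated kidneys, 1 for B12 in diabetic kidneys and 1 for the interaction with DESeq2, and 1 for each of the latter comparisons with the date as a covariate. Without D_C 1 and ND_B12 4 together it was 3, 1, 1, 0 and 1 for diabetes in untreated kidneys, diabetes in B12-treated kidneys, B12 in diabetic kidneys, B12 in non-diabetic kidneys and the interaction. Leaving out 1 library at a time gave 0 to 2 for diabetes in untreated kidneys (1 without ND_C 1, 2 without D_C 1), 0 to 1 for the interaction (1 without D_C 1) and 0 in the other comparisons. For the fits with the date, with the replicate block and with 1 library left out, the share of all genes that passed was not recorded. The counts under those settings therefore cannot be read as particular to the 6 genes. The cause of these shifts was not tested.

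Of 522 values of single genes under alternatives, 503 kept their direction and 19 did not. The latter concerned small fold changes: leaving out 1 library moved Mlxipl from -0.036 to 0.15 for diabetes in untreated kidneys and from -0.0048 to 0.19 for B12 in diabetic kidneys, Pklr from -0.067 to 0.42 for B12 in diabetic kidneys and from -0.027 to 0.32 in non-diabetic kidneys, Mlx from -0.10 to 0.0063 for B12 in non-diabetic kidneys, and, for the interaction, Mlxip from -0.049 to 0.057 and Pklr from -0.27 to 0.22. The interaction of Mlxip was 0.035 with upper-quartile normalization and 0.11 with the date. Without both libraries, the B12 effect on Pklr was -0.081 in diabetic and -0.029 in non-diabetic kidneys, Mlx 0.0040 for B12 in non-diabetic kidneys and the interaction of Mlxip 0.00062. The r of Txnip with Mlxip ran from -0.22 to 0.059 when 1 library was left out, and that with Arrdc4 from 0.693 to 0.759.

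Libraries with the same replicate number shared only a number: their deviations from the group means had a mean correlation of -0.0044 over 24 pairs (-0.242 to 0.375), against 0.0010 over 72 pairs with different numbers. With the replicate block, Txnip passed for the interaction (-1.11, edgeR adjusted p = 0.0458), making 1 gene, and the counts in the other comparisons stayed at 0. Over all alternatives, the fit without both libraries included, the adjusted p of Txnip for B12 in diabetic kidneys ran from 0.0165 to 0.320.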
